A study of Homo sapiens with 6 samples.

Results

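The transcripts examined are 10 genes of the Hippo pathway, the growth-control pathway that ends on the coactivator YAP. They are YAP1, its DNA-binding partners TEAD1 and TEAD4, the pathway regulators LATS2, AMOTL1, AMOTL2 and AJUBA, and the YAP targets CCN1, CCN2 and ANKRD1. They were chosen by symbol, through the match of the 19977 counted Ensembl identifiers to GENCODE 44, and all 10 were found and passed the filter on low counts. The cells were NCRM-1, a human induced pluripotent stem cell (iPSC) line with a wild-type genotype, grown as suspended aggregates in vertical wheel bioreactors after being dissociated to single cells in E8 medium. The 3 PEG and HS samples came from E8 with polyethylene glycol (PEG, 10 mg/ml) and heparin sodium salt (HS, 0.1 µg/ml), and the 3 E8 control samples from E8 without additives. Both media were renewed by 50% on the second day, and bulk RNA was taken on day 4. The labels name a single bioreactor for each medium, so the replicates may be samples of 1 vessel. Vessel and medium then cannot be told apart, and p-values measure only the spread between these samples. All samples are from 1 cell line.

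In the Hippo pathway, the kinases LATS1 and LATS2 phosphorylate YAP and its relative TAZ (gene WWTR1), which keeps them out of the nucleus. When the kinases are less active, for example in spread cells under actin tension, YAP enters the nucleus, binds TEAD factors and raises transcription of targets such as CCN1, CCN2 and ANKRD1. Several inhibitors of YAP, among them LATS2 and AMOTL2, are targets as well and form a feedback loop. YAP is controlled mainly at the protein level, and no protein or phosphorylation was measured in these libraries.

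Between 26991279 and 36185138 reads were counted on genes per library, and the ranges of the media overlapped. Values are given as CPM, read counts relative to the library size after scaling by edgeR's TMM factors, and levels of different genes are compared only as RPKM, the same value per kilobase of merged exons. Log2 fold changes are PEG and HS over E8 control. Pluripotency markers were high in all libraries, with a summed level of 8 genes of 8074 to 8346 CPM in PEG and HS, compared with 8660 to 8824 CPM in E8 control, so the markers of the labelled cell type were present. Of these 8 genes, 4 passed the test below as lower and 2 as higher in PEG and HS, beside 13.1% and 12.2% of all genes tested. In bulk RNA, fewer cells of a type and less RNA per cell cannot be told apart.

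The direct targets and most of the regulators were lower in PEG and HS, whereas TEAD1 and TEAD4 were slightly higher and YAP1 did not pass the test. Of the 10 genes, 9 passed the quasi-likelihood test of edgeR (Benjamini-Hochberg adjusted p below 0.05 over the 16505 genes tested, here named called), against a background of 25.3% of all genes tested. CCN1, CCN2, ANKRD1, LATS2, AMOTL2 and AJUBA fell, where 13.1% of all genes were called lower. AMOTL1, TEAD4 and TEAD1 rose, where 12.2% of all genes were called higher. For 8 of the 10 genes no library of either medium fell in the range of the other, against 39.3% of all genes, and the exceptions were ANKRD1 and YAP1. The 10 genes had a median log2 fold change of -0.57, beside 0.0031 over all genes tested. The summed level of the 10 genes lay between 635 and 646 CPM in PEG and HS, compared with between 660 and 664 CPM in E8 control. Most of this sum came from YAP1, TEAD1 and AMOTL1, none of which was called lower, so it says little about the genes that fell.

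**Figure D1:**
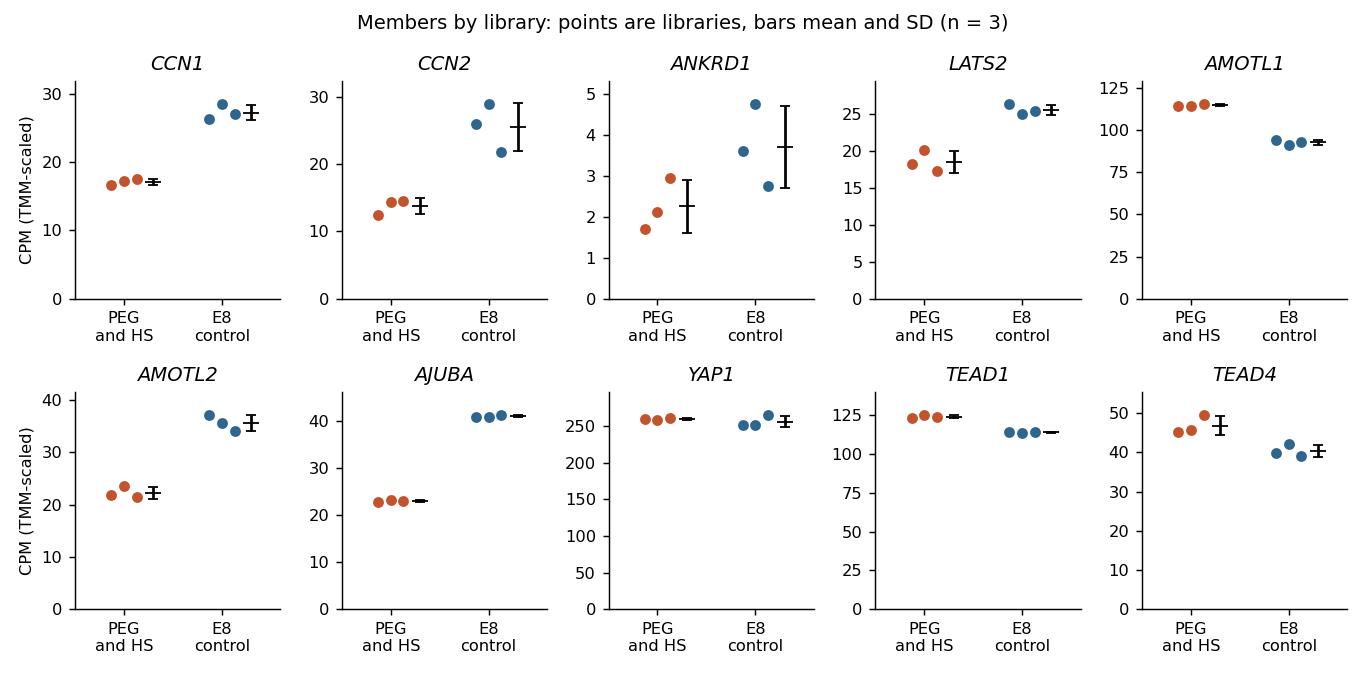
Level of each of the 10 genes in CPM (y axis, from 0) in the 3 PEG and HS libraries and the 3 E8 control libraries, with the mean and SD beside the points. The groups overlap for ANKRD1 and YAP1, and AJUBA is near 23.0 CPM in each PEG and HS library and near 41.1 CPM in each E8 control library.

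The sequences just before the start sites of 2 targets that fell are shown because they hold letters that TEAD factors are known to bind. They are the 250 bases before the RefSeq start (GRCh38.p14), on the strand of the gene and read 5′ to 3′, and capitals mark GGAATG, the core of the TEAD motif. The CCN2 bases lie at chr6:131951373-131951622 and those of ANKRD1 at chr10:90921088-90921337, both on the minus strand.
CCN2: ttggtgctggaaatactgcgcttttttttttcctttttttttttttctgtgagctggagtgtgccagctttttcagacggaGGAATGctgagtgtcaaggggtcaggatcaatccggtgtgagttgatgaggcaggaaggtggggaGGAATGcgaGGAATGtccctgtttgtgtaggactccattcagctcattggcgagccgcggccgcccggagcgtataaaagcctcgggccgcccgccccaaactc
ANKRD1: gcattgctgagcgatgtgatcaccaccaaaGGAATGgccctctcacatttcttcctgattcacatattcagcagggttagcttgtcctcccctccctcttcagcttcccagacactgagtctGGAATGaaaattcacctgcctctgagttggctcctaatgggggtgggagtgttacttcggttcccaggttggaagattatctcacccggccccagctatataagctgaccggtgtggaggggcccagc
CCN2 holds GGAATG 3 times, beginning 169, 104 and 95 bases before the start, and ANKRD1 holds it 2 times, at 220 and 128 bases. Searched on both strands as GGAATG and CATTCC, at least 1 match was found in 11.9% of the 35116 promoter windows of the same length, at least 2 in 0.940% and at least 3 in 0.0826%. No CArG box, the site of the factor SRF, was found in the window of any of the 7 genes with a promoter entry, against 1.16% of all windows. At that share, finding none is the usual outcome for so few windows, so it says nothing about SRF. A match is a description of letters and no evidence of binding in these cells.

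Of the 10 genes, 7 had a promoter entry, with 9 start sites in all, and CCN1, TEAD1 and TEAD4 had none. Single matches were also present before 1 of the 2 AMOTL2 starts (69 bases before it), before 1 of the 2 AJUBA starts (59 bases) and before the YAP1 start (162 bases). They are shown with their surroundings, since AMOTL2 and AJUBA fell and YAP1 was not called, with capitals for GGAATG or its reverse complement CATTCC. The matches of AMOTL2 and AJUBA lie in annotated exons of the genes themselves, and that of YAP1 in an exon of the noncoding gene ENSG00000277459 on the opposite strand. Those of CCN2 and ANKRD1 lie in no annotated exon.
AMOTL2: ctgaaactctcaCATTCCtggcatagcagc
AJUBA: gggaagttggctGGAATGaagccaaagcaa
YAP1: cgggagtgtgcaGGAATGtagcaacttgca
No match lay in the window of AMOTL1, which rose, or of LATS2, which fell.

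CCN1 (ENSG00000142871, chromosome 1, 85580761 to 85584589 of GRCh38) encodes a secreted matrix protein, formerly CYR61, that binds integrins and heparan sulfate. It was counted at 16.6, 17.2 and 17.5 CPM in the PEG and HS libraries and at 26.3, 28.5 and 26.99 CPM in the E8 control libraries. Each PEG and HS library lay below each E8 control library. The means were 17.1 ± 0.452 CPM (SD, n = 3) and 27.2 ± 1.1 CPM (SD, n = 3), which is 1.59-fold lower in PEG and HS (log2 fold change -0.67 with an SE of 0.0534, adjusted p = 1.79e-07 by edgeR).

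CCN2 (ENSG00000118523, chromosome 6, 131948176 to 131951372), formerly CTGF, encodes a related secreted protein that also binds heparan sulfate and promotes matrix deposition. Its levels were 12.5, 14.4 and 14.6 CPM in PEG and HS, compared with 25.9, 28.9 and 21.8 CPM in E8 control. The lowest E8 control library, replicate 3, still lay above the highest PEG and HS library. The means of 13.8 ± 1.17 and 25.6 ± 3.55 CPM (SD, n = 3) gave the largest change of the 10 genes, 1.85-fold lower (log2 fold change -0.88 with an SE of 0.0915, adjusted p = 3.34e-06 by edgeR). The CCN1 share of the summed RPKM of CCN1 and CCN2 was 43.9% ± 1.51 in PEG and HS and 40.4% ± 3.0 in E8 control, with overlapping libraries (two-sided exact permutation test, p = 0.3, adjusted p = 0.343). With 3 against 3 libraries this test cannot give a p below 0.1, so it does not show an unchanged share.

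ANKRD1 (ENSG00000148677, chromosome 10, 90912096 to 90921087) encodes an ankyrin-repeat protein of the nucleus and of muscle sarcomeres and is a common readout of YAP activity. It had the lowest counts of the 10 genes, with 57, 60 and 100 counts in PEG and HS and 97, 154 and 99 in E8 control. In CPM these were 1.69, 2.12 and 2.95 against 3.596, 4.74 and 2.74, and the media overlapped. PEG and HS replicate 3 was above E8 control replicate 3. ANKRD1 was called lower (log2 fold change -0.70 with an SE of 0.216, adjusted p = 0.0264 by edgeR), with a 95% interval of -1.16 to -0.24. The call was lost without any 1 of 4 libraries, with an adjusted p of 0.135 without PEG and HS replicate 1, 0.0768 without PEG and HS replicate 2, 0.0566 without E8 control replicate 1 and 0.154 without E8 control replicate 2. The log2 fold change then lay between -0.48 and -0.72.

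AJUBA (ENSG00000129474, chromosome 14, 22971177 to 22982551) encodes a LIM-domain protein of cell junctions that binds and restrains the LATS kinases. It showed the tightest replicates of the genes that fell, at 22.8, 23.3 and 23.0 CPM in PEG and HS, compared with 41.0, 40.9 and 41.3 CPM in E8 control. The SD was 0.223 CPM in PEG and HS, compared with 0.229 CPM in E8 control. As a share of the mean these are 0.970% and 0.558%, below the counting error of 3.69% and 2.76%. The SDs of these 3 libraries therefore understate the spread. The difference between media was far larger than either the SD or the counting error. AJUBA was 1.78-fold lower (log2 fold change -0.84 with an SE of 0.0425, adjusted p = 1.09e-09 by edgeR), the smallest adjusted p of the 10 genes.

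AMOTL2 (ENSG00000114019, chromosome 3, 134355347 to 134375479) and AMOTL1 (ENSG00000166025, chromosome 11, 94706431 to 94876748) encode angiomotin-like proteins that bind YAP and hold it at junctions and on actin. They went in opposite directions. AMOTL2 was at 21.7, 23.6 and 21.4 CPM in PEG and HS, compared with 37.1, 35.6 and 34.0 CPM in E8 control, which is 1.601-fold lower (log2 fold change -0.68 with an SE of 0.0527, adjusted p = 1.37e-07 by edgeR). AMOTL1 was at 114, 114 and 115 CPM in PEG and HS, compared with 94.0, 91.0 and 93.1 CPM in E8 control, which is 1.24-fold higher (log2 fold change 0.31 with an SE of 0.0293, adjusted p = 1.47e-06 by edgeR). For both genes no library of one medium reached into the range of the other.

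LATS2 (ENSG00000150457, chromosome 13, 20973036 to 21061586) encodes one of the kinases that phosphorylate YAP. It was at 18.2, 20.1 and 17.2 CPM in PEG and HS, compared with 26.2, 25.0 and 25.4 CPM in E8 control. The libraries did not overlap, and LATS2 was 1.38-fold lower in PEG and HS (log2 fold change -0.47 with an SE of 0.0598, adjusted p = 3.12e-05 by edgeR). LATS1, which encodes the other kinase, had 43.5 ± 3.15 and 42.8 ± 0.685 CPM (adjusted p = 0.790), with a 95% interval of -0.08 to 0.13 for its log2 fold change.

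YAP1 (ENSG00000137693, chromosome 11, 102110447 to 102233424) encodes the coactivator on which the pathway ends. It was counted at 259.6, 258 and 262 CPM in PEG and HS, compared with 252, 251 and 265 CPM in E8 control. The highest and the lowest values were both from E8 control. YAP1 was not called (log2 fold change 0.020 with an SE of 0.0283, adjusted p = 0.668 by edgeR), and the 95% interval of its log2 fold change was -0.04 to 0.08. An effect of the size seen for CCN1 or CCN2 lies outside this interval.

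TEAD4 (ENSG00000197905, chromosome 12, 2959330 to 3040676) encodes the TEAD factor needed for trophectoderm in the early embryo, and it rose slightly. Its levels were 45.2, 45.7 and 49.5 CPM in PEG and HS, compared with 40.0, 42.1 and 39.2 CPM in E8 control. TEAD1 (ENSG00000187079, chromosome 11, 12674421 to 12944737), a broadly expressed TEAD factor, was at 123, 125 and 123 CPM in PEG and HS, compared with 114, 113 and 114 CPM in E8 control. Neither gene overlapped between media. The changes were small, 1.16-fold for TEAD4 (log2 fold change 0.21, SE 0.0461) and 1.09-fold for TEAD1 (log2 fold change 0.12, SE 0.0279), with an adjusted p of 0.00306 and 0.00523 from edgeR.

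**Figure D2:**
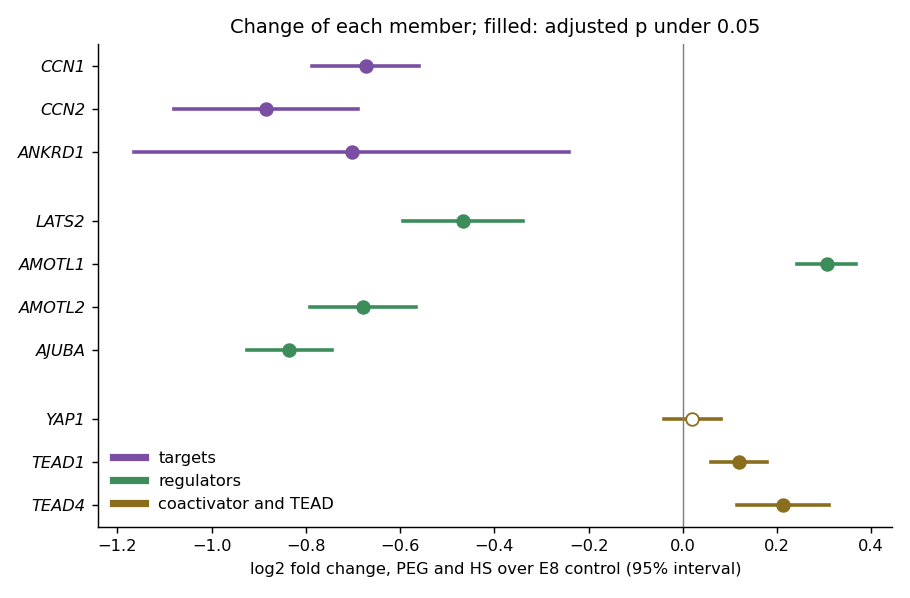
Log2 fold change of each gene (x axis, PEG and HS over E8 control), with its 95% interval as a line and filled points for an adjusted p under 0.05. The 3 targets lie between -0.67 and -0.88, AMOTL1 stands apart from the other regulators at 0.31, and the open point is YAP1 at 0.020.

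Set side by side by role, the 3 targets had a median log2 fold change of -0.70, with 3 of 3 called lower, beside 13.1% of all genes, although the ANKRD1 call is lost without any 1 of 4 libraries. The 4 regulators had a median of -0.57, with 3 called lower and 1 higher. YAP1, TEAD1 and TEAD4 had a median of 0.12, with 2 called higher, beside 12.2% of all genes, and none lower. TEAD2 and TEAD3, which are outside the list, did not rise, with log2 fold changes of -0.01 (not called) and -0.16 (called lower). LATS2, AMOTL2 and AJUBA are counted as regulators here but are known YAP targets too, and their log2 fold changes of -0.47 to -0.84 stood beside -0.67 to -0.88 for CCN1, CCN2 and ANKRD1. The summed level of CCN1, CCN2 and ANKRD1 was 30.8 to 35.0 CPM in the PEG and HS libraries and 51.6 to 62.1 CPM in the E8 control libraries. That of YAP1, TEAD1 and TEAD4 was 428 to 434 CPM and 406 to 418 CPM. The genes were chosen with results of these libraries known, so no test was made over a group of them.

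Per kilobase of exon, YAP1 was the most abundant of the 10 transcripts in both media, at 41.2 ± 0.286 RPKM in PEG and HS and 40.6 ± 1.23 RPKM in E8 control. TEAD4 came next, at 20.6 ± 1.04 and 17.8 ± 0.678 RPKM. In E8 control CCN2 (10.9 ± 1.52 RPKM) and TEAD1 (10.6 ± 0.0243 RPKM) followed and overlapped with each other. The lowest CCN2 library of E8 control (9.34 RPKM) also lay below the highest AMOTL1 library (9.37 RPKM), which is not its neighbour in the order. In PEG and HS CCN2 was at 5.91 ± 0.50 RPKM, behind TEAD1 at 11.6 RPKM and AMOTL1 at 11.4 RPKM. AMOTL2 and LATS2 overlapped in PEG and HS (3.43 and 3.30 RPKM), and no other neighbours in the order of either medium did. ANKRD1 was the least abundant in both, at 1.26 ± 0.359 and 2.06 ± 0.560 RPKM. This order depends on the length used. Merged exons span 10700 bases for TEAD1 and 2275 for TEAD4, whereas their coding lengths are 1278 and 1302 bases. The place of TEAD4 before TEAD1 is therefore not settled, and the order was not made with another length.

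Each family also has members outside the list, and these did not all move with it. WWTR1, which encodes TAZ, was at 3.41 and 3.35 RPKM, so YAP1 made up 92.3% ± 0.313 of the pair in PEG and HS and 92.4% ± 0.328 in E8 control. Of the TEAD genes, TEAD2 was the most abundant at 73.3 ± 1.23 RPKM in PEG and HS and 73.9 ± 1.91 RPKM in E8 control, and it was not called (log2 fold change -0.01, adjusted p = 0.810 from edgeR). TEAD3 fell slightly (log2 fold change -0.16, SE 0.0400, adjusted p = 0.00947), and the call was lost without PEG and HS replicate 1 (adjusted p = 0.0590). The TEAD4 share of the 4 TEAD genes was 17.1% ± 0.729 in PEG and HS and 14.9% ± 0.294 in E8 control, and the TEAD1 share 9.61% ± 0.137 and 8.95% ± 0.217. These differences of 2.16 and 0.657 percentage points depended on the length used, and were 1.27 for TEAD4 and 1.69 for TEAD1 with no length correction, so their order is not settled.

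The larger shifts within a family were in the angiomotins, the LIM proteins and the LATS kinases. AMOTL1 made up 71.0% ± 0.944 of the summed RPKM of AMOT, AMOTL1 and AMOTL2 in PEG and HS and 56.7% ± 0.657 in E8 control, while the AMOTL2 share was 21.3% ± 0.883 and 33.7% ± 1.11. AMOT itself was lower in PEG and HS (10.46 ± 0.346 against 13.2 ± 1.04 CPM, log2 fold change -0.35, adjusted p = 0.00230). The AJUBA share of AJUBA, LIMD1 and WTIP was 46.4% ± 0.968 and 58.5% ± 0.60. WTIP fell with AJUBA (7.72 ± 0.0904 against 12.01 ± 0.260 CPM, log2 fold change -0.64, adjusted p = 4.63e-06), whereas LIMD1 was not called (50.0 ± 1.97 against 51.6 ± 1.85 CPM, adjusted p = 0.484). The LATS2 share of both LATS genes was 39.1% ± 1.61 and 47.4% ± 0.911. Of the 8 shares compared, those of TEAD1, TEAD4, LATS2, AMOTL1, AMOTL2 and AJUBA did not overlap between media. The two-sided exact permutation p of each was 0.1 (adjusted p = 0.133), which is the smallest this test can give with 3 against 3 libraries, so it could not pass 0.05 and says nothing about the shares in either direction.

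**Figure D3:**
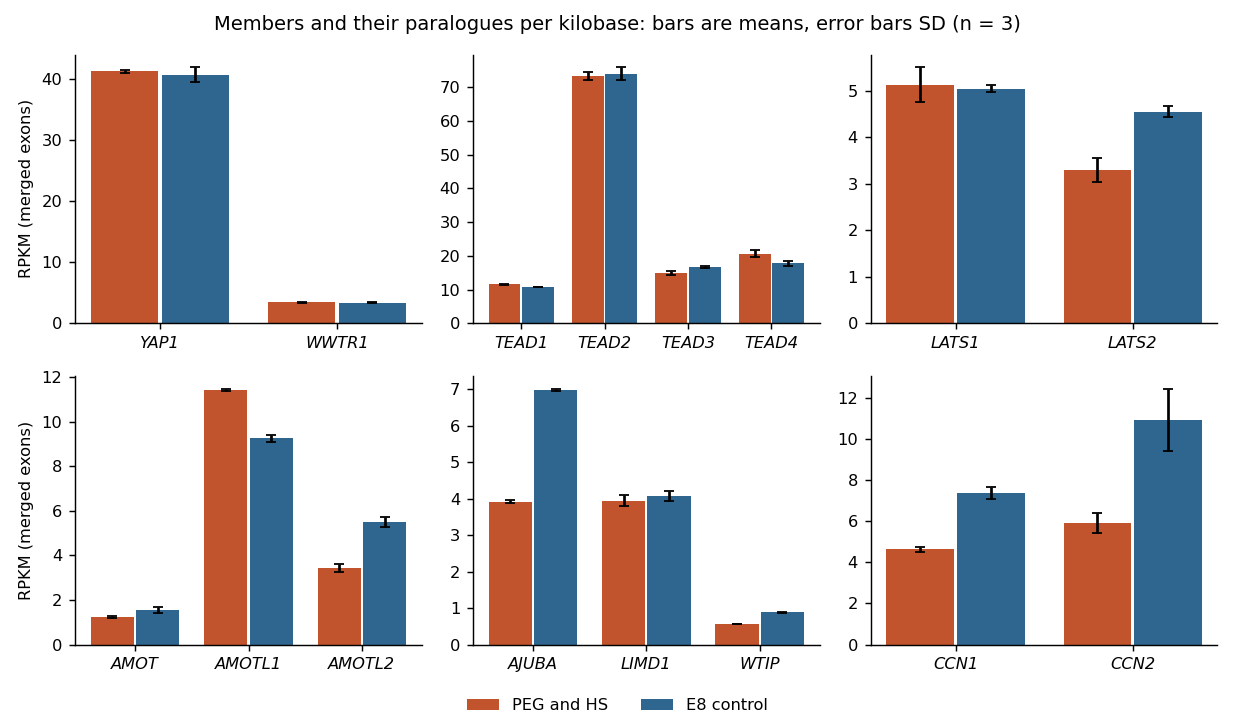
Mean level per kilobase of merged exons (RPKM, y axis from 0, SD as error bars, n = 3) of each gene and its paralogues in PEG and HS and E8 control. TEAD2 at over 73 RPKM exceeds TEAD1, TEAD3 and TEAD4 in both media, and AMOTL1 and AMOTL2 differ between media in opposite directions.

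Other genes of the pathway were read from 4 lists. Of 17 further YAP and TAZ targets, from a signature used in tumours, 9 were lower, beside 13.1% of all genes, none was higher and 8 were not called, with a median log2 fold change of -0.25. The largest were IGFBP3, a binding protein of insulin-like growth factors (17.2 ± 2.49 against 45.3 ± 5.78 CPM, log2 fold change -1.40, adjusted p = 2.89e-08), TGFB2, a TGF-beta ligand (2.36 ± 0.166 against 4.71 ± 0.646 CPM, log2 fold change -0.998, adjusted p = 6.51e-05), and NUAK2, a kinase (5.95 ± 0.727 against 11.3 ± 0.585 CPM, log2 fold change -0.93, adjusted p = 1.86e-06). Of 14 targets of SRF and its actin-regulated cofactor MRTF, a route that CCN1, CCN2 and ANKRD1 are also known to respond to, 8 were lower, 1 was higher and 5 were not called, beside 13.1% lower and 12.2% higher of all genes, with a median of -0.17. TPM1, which encodes a tropomyosin of actin filaments, went from 243 ± 4.23 CPM in E8 control to 95.1 ± 1.88 CPM (log2 fold change -1.35, adjusted p = 2.08e-13). TAGLN (log2 fold change -0.87, adjusted p = 2.60e-07) and MYL9 (log2 fold change -0.85, adjusted p = 5.85e-08), an actin-binding protein and a myosin light chain, fell, and ZYX, an adhesion protein, rose (log2 fold change 0.15, adjusted p = 0.00175).

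Of 15 upstream genes of the pathway, 5 were lower and 1 was higher, beside 13.1% and 12.2% of all genes, and 9 were not called. Among those not called were NF2, which encodes the merlin scaffold, and SAV1, STK3, STK4, MOB1A and MOB1B, which encode parts of the core kinase module. The median log2 fold change of the 15 genes was -0.042. The exception in size was FAT4, an atypical cadherin (4.34 ± 0.621 against 10.2 ± 0.451 CPM, log2 fold change -1.24, adjusted p = 2.06e-07). WWC2 rose (log2 fold change 0.16, adjusted p = 0.000737), the kinase MAP4K4 fell (log2 fold change -0.20, adjusted p = 3.12e-05), and WWC1, a scaffold related to WWC2, fell slightly (log2 fold change -0.15, adjusted p = 0.0128). The WWC1 call was lost without PEG and HS replicate 1 (adjusted p = 0.0547), PEG and HS replicate 3 (0.0522) or E8 control replicate 3 (0.0582).

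Of 17 paralogues and TEAD cofactors, 12 had enough counts to be tested, 4 were lower and 2 higher, beside 13.1% and 12.2% of all genes, with a median of -0.10. VGLL3, a cofactor that binds TEAD factors, fell from 20.5 ± 1.61 to 8.66 ± 0.458 CPM (log2 fold change -1.24, adjusted p = 5.39e-09). VGLL4 (log2 fold change 0.12, adjusted p = 0.0374) and the ANKRD1 relative ANKRD23 (log2 fold change 0.49, adjusted p = 0.0216) were called higher, but not with DESeq2 (adjusted p = 0.0755 and 0.0641). With 1 library left out, VGLL4 kept its call only without PEG and HS replicate 1 (adjusted p 0.0562 to 0.158 without each of the others). ANKRD23 lost its call without PEG and HS replicate 2 (adjusted p = 0.0967) or E8 control replicate 1 (0.0691).

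**Figure D4:**
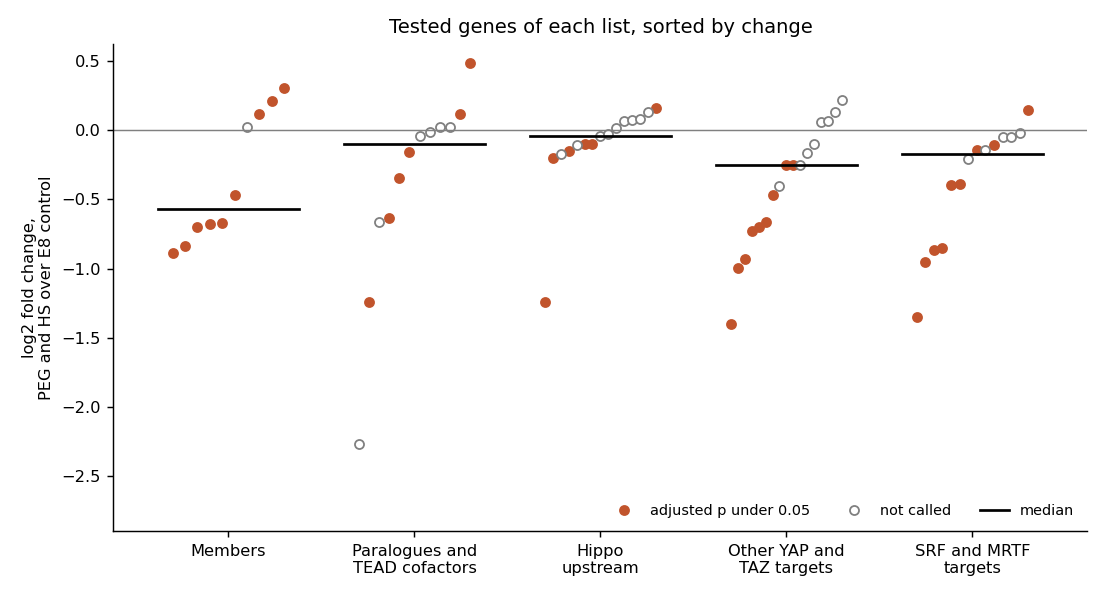
Log2 fold change (y axis, PEG and HS over E8 control) of the tested genes of the 10 members and of the 4 other lists, sorted within each list, with filled points for an adjusted p under 0.05 and a line at each median. The medians are -0.57 for the members and -0.042 for the upstream genes, and no called gene of the other YAP and TAZ targets lies above 0.

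Some markers of other cell types were also lower in PEG and HS, and their part in the results was not tested. Of 6 mesenchyme and fibroblast markers, 4 were lower in PEG and HS, where 13.1% of all genes were called lower. The 6 genes summed to 166 to 174 CPM against 229 to 254 CPM in E8 control, most of it from COL1A1 and COL1A2. COL1A1 was called lower (60.1 against 120 CPM). COL1A2 (98.4 against 104 CPM) and TWIST1 (0.207 against 0.366 CPM) were not called. DCN and LUM, which were called lower, had levels of 1.83 and 0.948 CPM in PEG and HS, compared with 3.48 and 2.20 CPM in E8 control. All 6 neuroectoderm markers were lower, with a summed level of 37.3 to 41.8 CPM against 149 to 155 CPM. Of 6 trophectoderm and amnion markers 3 were lower (5.34 to 5.58 against 14.5 to 15.6 CPM), and the trophectoderm factor CDX2 was at or below 0.0247 CPM on average in both media. Mesoderm markers summed to 5.47 to 5.66 and 6.19 to 7.40 CPM (2 of 6 lower) and endoderm markers to 2.90 to 2.94 and 3.52 to 4.26 CPM (none of 3 tested called).

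The 10 genes share little transcript sequence with other genes. Cut into words of 31 bases, the GENCODE transcripts of a gene shared 0% of their words with other genes for CCN1, LATS2 and TEAD1, and at most 2.38%, for AMOTL2. CCN2 (LINC01013), AMOTL1 and YAP1 are overlapped by long noncoding RNA genes on the opposite strand. The libraries were stranded, but whether the counting used strand is not given in the sources used here, so reads of these pairs may not be separated.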

How the data were processed

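Polyadenylated RNA of 6 samples was sequenced from stranded libraries. According to the methods and the submitters' processing notes, reads were trimmed with Trim Galore 0.6.7 and mapped to GRCh38 with STAR 2.6.1 in an nf-core pipeline. The values used are raw counts per gene, which the authors deposited without normalization, 1 library per file. The counting tool, its use of strand and the annotation release are not given in the sources used here. The treatment text of the labels describes PEG and heparin for all 6 samples, and the treatment given for each sample was followed.

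Of 19977 identifiers, 19916 matched GENCODE 44, which gave symbols, positions and merged exon lengths. A gene entered the test if its counts summed to at least 10. The test was that of edgeR 4.0.16 in R 4.3.3 (TMM, glmQLFit, glmQLFTest, no covariate, Benjamini-Hochberg adjustment), and genes were called at an adjusted p under 0.05. Each SE is the size of the log2 fold change divided by the root of its F statistic, and intervals are 95%. The common biological coefficient of variation was 3.12%. Replicates differed by more than counting noise (chi-square 2.61 to 3.60 times its degrees of freedom) and were all kept. DESeq2 1.42.0, limma-voom (limma 3.58.1), other scalings and filters, the replicate number as a block and each library left out were alternatives. The scripts were tested on simulated counts. Members, lists and tests were chosen with earlier results of these data known. The rule for named genes took all members, 7 paralogues and, of each list, up to 3 called genes at each end of the log2 fold changes, without overlap and reaching 1 CPM in all libraries of whichever medium was higher. NF2, SAV1, STK3, STK4, MOB1A and MOB1B were named after their values were seen. Promoter sequences are from RefSeq (GRCh38.p14).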

Additional observations from a re-analysis of the deposited data

How the results depend on the processing

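The count of called members was 9 of 10 with DESeq2, limma-voom, DESeq2 size factors, library size alone, both other filters and the replicate block, and 8 or 9 with a library left out. In each setting the called members were among the same 9. The replicate block gave 4444 calls over all genes against 4173 without it and changed no call of a member. Samples with the same number did not deviate together (correlations of 0.0052, 0.0137 and 0.0039), so the numbers were not taken as pairs. Every member except ANKRD1 kept its direction and its side of the threshold in all 13 alternatives. With a library left out, the log2 fold change of ANKRD1 was -0.96 to -0.48, the median of the targets -0.93 to -0.64, and the median of the regulators -0.62 to -0.53. Without length correction the difference in share, in percentage points, was 1.69 for TEAD1, 1.27 for TEAD4, 12.3 for AMOTL1, -10.0 for AMOTL2 and -10.7 for AJUBA, and with coding length of the GENCODE canonical transcript, chosen after the data were seen, it was 1.72, 1.28, 13.2 and -10.5 for TEAD1, TEAD4, AMOTL1 and AJUBA. Coding length of a RefSeq protein was not run. ANKRD1, with 57 to 154 reads per library, had a 95% interval nearly 1 log2 unit wide, and its libraries differed by more than counting error.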

Other observations

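The spread between libraries of a medium exceeded counting error in both media for CCN2, ANKRD1, AMOTL2 and TEAD4. It did so in neither medium for AJUBA, TEAD1 and AMOTL1, and in a single medium for CCN1, LATS2 and YAP1. CCN2 varied by 13.9% (coefficient of variation over the 3 E8 control libraries) and 8.45% in PEG and HS, where counting error alone gives 3.52% and 4.76%. ANKRD1 varied by 27.1% and 28.5%, where counting error gives 9.26% and 11.8%. AJUBA varied by 0.558% and 0.970% and TEAD1 by 0.229% and 0.827%, below their counting error of 1.59% or more. Among the genes named in the report, CCN2, ANKRD1, TEAD4, TEAD2, IGFBP3, TGFB2, TAGLN and MYL9 each had their highest E8 control value in replicate 2 and their lowest in replicate 3. CCN1, CCN2, ANKRD1, AMOTL1, TEAD4, IGFBP3 and TGFB2 each had their highest PEG and HS value in replicate 3 and their lowest in replicate 1. TEAD4, which rose, had both orders, so they were not particular to genes that fell. AMOTL2, AJUBA and LATS2, which fell, did not have these orders, since their highest library was replicate 1 or 3 in E8 control and replicate 2 in PEG and HS. These orders were noticed in the data, rest on 3 libraries a medium and were not tested.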
